A study of Bos taurus with 34 samples.

Results

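The miR-15, miR-16, miR-195 and miR-497 family was followed here in the blood of dairy cows with and without subclinical endometritis (SCE), a persistent inflammation of the uterine lining that shows no outward signs. Its members in the count files were bta-miR-15a, bta-miR-15b, bta-miR-16a, bta-miR-16b, bta-miR-195 and bta-miR-497, 6 of the 800 mature bovine miRNA names counted. The prefix bta, for Bos taurus, is left out below. The family was chosen by name with earlier values of the same libraries known. Those values were the higher miR-195 and miR-497 in SCE cows at day 25 and over both days, and the day difference of both in healthy cows. For these contrasts, and for the difference of the day change between statuses, levels and log2 fold changes are a description, and of the tests only counts of calls are given.

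The study sampled 17 dairy cows early and late after calving, 6 classed as healthy (cows 1 to 6) and 11 with SCE (cows 7 to 17), with status set by endometrial cytology and biopsy. It asked whether miRNAs circulating outside cells differ with the state of the uterus. The sample labels give day 25 and day 45, and the series' design text 21 and 44 days. The labels call the fluid serum and the design text plasma, and no treatment is named for either group. For healthy cow 3 the file labelled day 25 repeated its day-45 counts and was left out, so day 25 had 5 healthy and 11 SCE libraries and day 45 had 6 healthy and 11 SCE libraries.

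A miRNA is a short RNA that lowers the output of messenger RNAs, which it recognises mainly through its seed, a short stretch near the 5′ end. Members of this family share a seed, and so are expected to reach overlapping targets, among them messenger RNAs of the anti-apoptotic protein BCL2 and of cyclins that drive cells into division. miR-16 is abundant in red blood cells and in cell-free blood fractions, whereas miR-195 and miR-497 are known from muscle, vessel wall and other tissues and restrain proliferation there.

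The members belong to 3 genomic pairs, and all 6 matched a gene of the RefSeq annotation of assembly ARS-UCD2.0. The files were made on an earlier build (UMD 3.1), so only gene neighbourhoods are given. MIR15A and MIR16A lie side by side within a transcribed pseudogene (LOC100847818). MIR15B and MIR16B lie side by side within SMC4, the gene of a condensin subunit that packs chromosomes for division. MIR195 and MIR497 lie side by side within a long non-coding RNA gene (LOC107131510), near the protein-coding gene C19H17orf49. miR-16a and miR-16b are near-identical copies. The sources used here do not say how reads that match both were assigned, so their separate counts are uncertain.

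Totals ran from 678389 to 28872153 counts per library. Median totals of healthy libraries were 15570759 counts at day 25 and 16939642 at day 45. Those of SCE libraries were lower, at 8454315 and 9354855 counts. The shallowest 2 libraries were those of SCE cow 10, at 1343401 and 678389 counts. The files of all healthy cows and of SCE cows 7 and 8 have a blank first header cell, and those of the other 9 SCE cows have a space there. The sources used here do not say what this difference stands for, and it cannot be told apart from status except through cows 7 and 8, whose values are therefore given separately. The protocol names 13 or 16 PCR cycles without saying which library had which, and no molecular identifiers, so reads are not independent molecules. In a cell-free sample, fewer releasing cells and less RNA per cell cannot be told apart.

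Levels are given in CPM, the reads of a miRNA scaled to a common library size, with library sizes scaled by the trimmed mean of M values (TMM). Over the 33 libraries miR-16b was the most abundant member, with a mean of 6346 CPM and rank 24 of the 800 names. It was followed by miR-16a at 1137 CPM (rank 54), miR-15a at 1113 CPM (rank 56), miR-15b at 130 CPM (rank 116), miR-497 at 42.5 CPM (rank 149) and miR-195 at 22.1 CPM (rank 177). The ranges of the neighbours miR-16a and miR-15a overlapped widely, from 208 to 2828 CPM and from 465 to 2305 CPM, as did those of miR-497 (4.13 to 125 CPM) and miR-195 (0.885 to 68.0 CPM). No library gave a count of 0 for any member, but the lowest counts of miR-195 were 5 and 6 reads, in SCE cow 7 and healthy cow 4 at day 25.

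**Figure D1:**
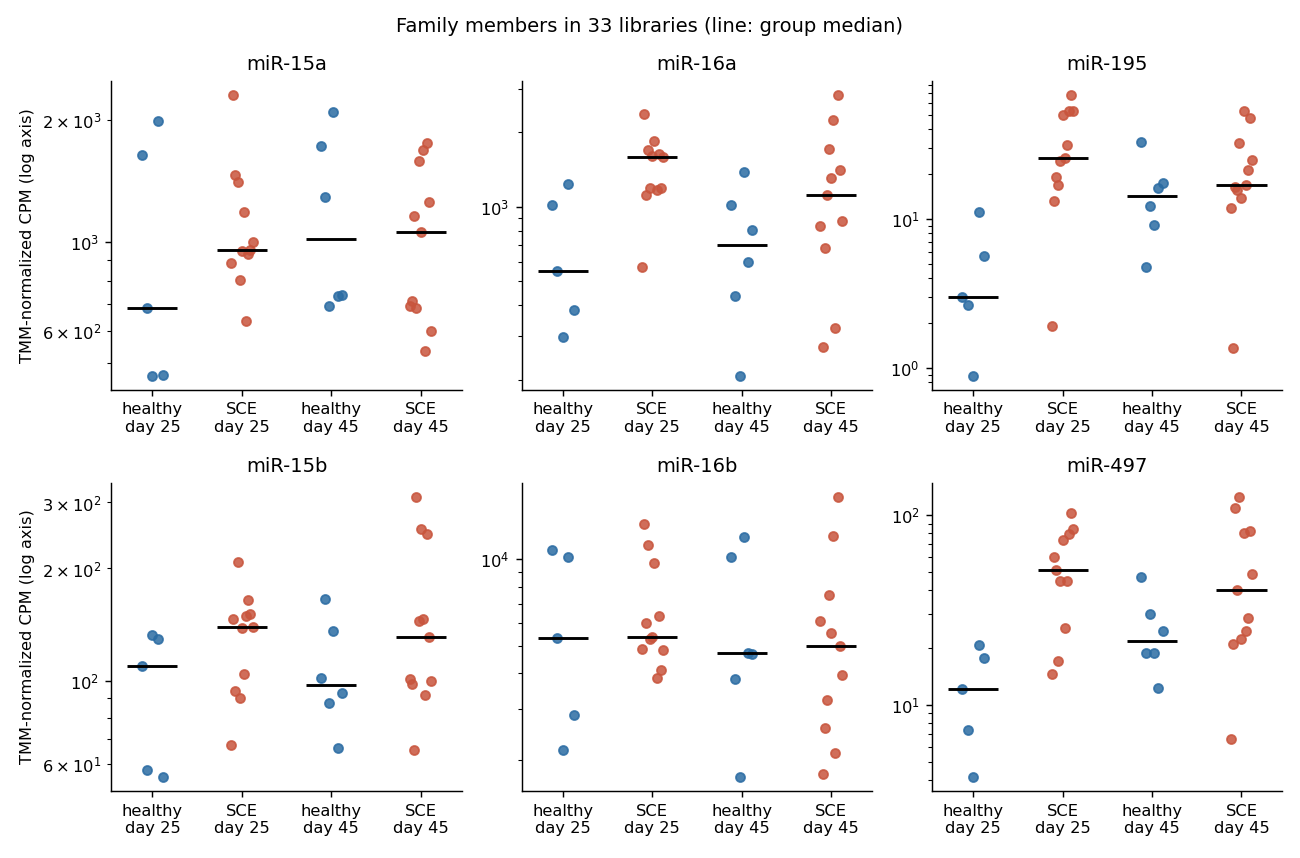
Level of each member in every library, in TMM-scaled CPM on a log axis, by status and labelled day; each point is 1 cow and the line is the group median. miR-195 and miR-497 at day 25 lie low in the healthy cows, from 0.885 to 11.1 CPM and from 4.13 to 20.7 CPM, while the levels of miR-15a and miR-16b overlap between statuses.

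As a share of all counts, the 6 members together took 0.570% ± 0.480 at day 25 (SD over 5 healthy cows) against 1.25% ± 0.458 (SD over 11 SCE cows). At day 45 these shares were 0.594% ± 0.354 (SD over 6 healthy cows) and 1.01% ± 0.652 (SD over 11 SCE cows). The miRNA miR-486 filled unequal parts of the libraries. At day 25 it gave 15074217 of 18592348 counts in healthy cow 1 and 437929 of 10785168 in SCE cow 16. SCE cow 7 went the other way, with 4888944 of 6185794. The day-25 TMM factors of healthy cows lay between 0.39 and 1.03. For SCE cows they reached 1.87, the lowest being cow 7 at 0.42. CPM levels rest on these factors, and the part of miR-486 in shares and factors was not tested. After TMM scaling the summed levels lay closer. Healthy cows had 8104 ± 5121 CPM (SD, n = 5) at day 25 and 8285 ± 4944 CPM (SD, n = 6) at day 45, and SCE cows had 9609 ± 3917 and 8559 ± 5730 CPM (SD, n = 11 each).

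The family sum was mostly a measure of miR-16b. Of the reads of the family it made up 76.2% ± 3.88 (SD, n = 5) and 72.3% ± 6.24 (SD, n = 6) in healthy cows, early and late, and 69.6% ± 5.24 and 67.6% ± 7.22 in SCE cows (SD, n = 11 each). miR-16a made up 8.97% ± 1.05 (SD, n = 5) and 9.02% ± 1.99 (SD, n = 6) in healthy cows, and 15.7% ± 3.85 and 14.4% ± 3.33 in SCE cows (SD, n = 11 each). miR-195 and miR-497 each made up less than 1% of the family on average in every group.

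The balance of the counts of miR-16a and miR-16b differed between healthy and SCE cows. How reads that match both were assigned is not stated, and its part in this ratio was not tested. Status and the header form of the files cannot be told apart here except through cows 7 and 8. In healthy cows 1 to 6 at day 45 there were 10.0, 8.76, 8.33, 8.70, 7.86 and 5.80 miR-16b reads per miR-16a read, with a mean of 8.24 ± 1.39 (SD, n = 6). In the SCE cows at day 45 the lowest, median and highest were 2.91, 4.48 and 7.33, with a mean of 4.99 ± 1.42 (SD, n = 11). In 7 of 11 SCE cows this number was below that of every healthy cow, and the other 4 lay within the healthy range. On the log2 scale, with 1 added to each count, the ratio of miR-16a to miR-16b was -3.02 ± 0.27 over the 6 healthy cows (SD) and -2.26 ± 0.42 over the 11 SCE cows (SD). The means differed by 0.76 (exact permutation test, two-sided, p = 0.00178, Benjamini-Hochberg adjusted p = 0.0124 over 7 ratios between members). The ratios were chosen with earlier results of these data known, which this adjustment does not cover. A ratio within a library does not depend on its depth or scaling.

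At day 25, given as a description, healthy cows 1, 2, 4, 5 and 6 had 10.6, 9.62, 7.26, 8.20 and 7.45 miR-16b reads per miR-16a read. The lowest, median and highest SCE cows had 3.03, 4.42 and 8.50. Here 10 of 11 SCE cows lay below every healthy cow, cow 7 being the exception, and the log2 ratio of miR-16a to miR-16b differed by 0.90. Within cows sampled on both days the log2 ratio changed by 0.08 ± 0.22 in the healthy group (SD, n = 5) and by -0.08 ± 0.59 in the SCE group (SD, n = 11).

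**Figure D2:**
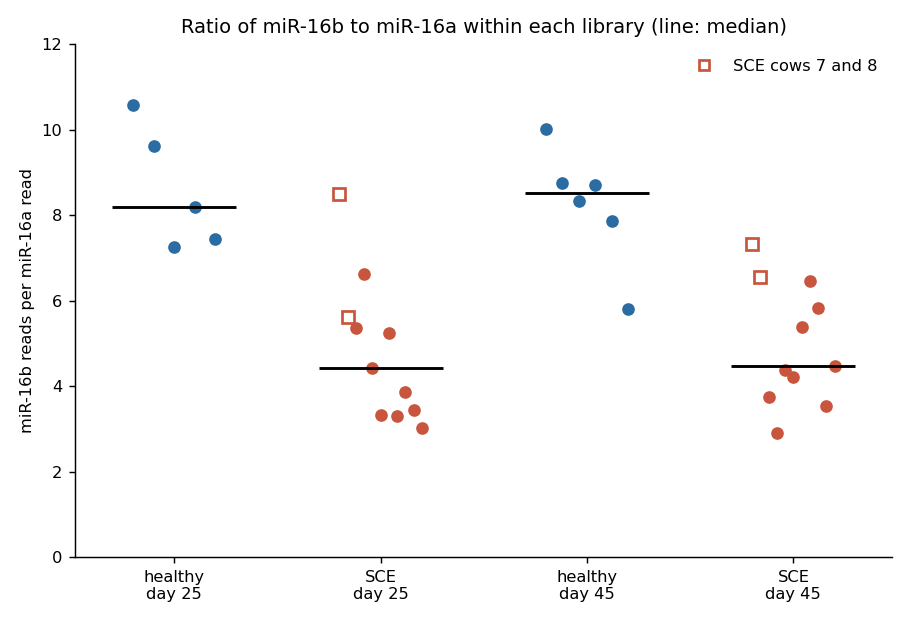
Reads of miR-16b per read of miR-16a in each library, by status and labelled day, on a linear axis from 0; points are cows, lines are medians, and open squares are SCE cows 7 and 8. Healthy cows lie between 5.80 and 10.6, and most SCE cows below them, with medians of 4.42 at day 25 and 4.48 at day 45.

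SCE cows 7 and 8, whose files share the header form of the healthy cows, had 7.33 and 6.56 miR-16b reads per miR-16a read at day 45, within the healthy range. Set alone against the 6 healthy cows they differed by 0.23 in the log2 ratio (exact permutation test, two-sided, n = 2 and 6, p = 0.286). With 28 arrangements of 2 against 6 cows the smallest p is 0.0357, or 0.25 for a single ratio after adjustment over 7, so this comparison could not have passed. Without them the difference was 0.88 (exact permutation test, adjusted p = 0.00559). At day 25 they had 8.50 and 5.61, of which the second lay below every healthy cow. The part of the header form in the difference was not tested further, and these 3 estimates were chosen after seeing the data. A usual gauge of red blood cell RNA in serum is miR-451 relative to miR-23a. With this log2 ratio as a covariate the day-45 difference was 0.73 (SE 0.21), and with miR-486 in place of miR-451 it was 0.51 (SE 0.18).

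The level of miR-16a stood higher on average in SCE cows, but no difference passed the test. At day 25 it was 1015, 553, 299, 1237 and 383 CPM in healthy cows 1, 2, 4, 5 and 6, and 570, 1592 and 2363 CPM in the lowest, median and highest SCE cow. In 6 of 11 SCE cows it was above every healthy cow, none was below, and the log2 fold change of SCE over healthy was 1.01 (SE 0.40, 95% interval 0.18 to 1.83). At day 45 the lowest, median and highest were 208, 703 and 1377 CPM in healthy and 271, 1113 and 2828 CPM in SCE cows. The groups overlapped, and 4 of 11 SCE cows exceeded all healthy ones. The log2 fold change at day 45 was 0.81 (SE 0.47, 95% interval -0.17 to 1.78, edgeR adjusted p = 0.595).

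miR-16b, the dominant member, showed nearly the same centre in both statuses. At day 25 it stood at 10743, 5317, 2170, 10139 and 2853 CPM in healthy cows 1, 2, 4, 5 and 6, and at 3861, 5350 and 13265 CPM in the lowest, median and highest SCE cow. At day 45 the lowest, median and highest were 1735, 4699 and 11981 CPM in healthy and 1780, 4977 and 16509 CPM in SCE cows. At each day 2 of 11 SCE cows were above every healthy cow and none was below. The log2 fold change was 0.07 (SE 0.42) at day 25 and 0.04 (SE 0.48, 95% interval -0.95 to 1.03, edgeR adjusted p = 0.984) at day 45. The day-45 interval includes a change of 0.9 in either direction, so similar levels were not shown. With the miR-451 covariate the day-45 value was 0.52 (SE 0.32), and with other size factors its sign turned, to -0.013.

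miR-15a, the partner of miR-16a in the genome, had overlapping ranges in both statuses. At day 25 it ranged from 465 to 1985 CPM in healthy and from 636 to 2305 CPM in SCE cows, with 1 of 11 SCE cows above the highest healthy cow and a log2 fold change of 0.07 (SE 0.40). At day 45 it ranged from 693 to 2089 CPM in healthy and from 534 to 1756 CPM in SCE cows, with none above and 4 below every healthy cow. The log2 fold change at day 45 was -0.13 (SE 0.37, 95% interval -0.89 to 0.63, edgeR adjusted p = 0.946), and its sign turned when healthy cow 1 or 4 or SCE cow 8, 14 or 17 was left out.

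miR-15b, the partner of miR-16b, was scarcer. At day 25 the healthy cows ranged from 55.4 to 133 CPM and the SCE cows from 67.7 to 208 CPM, and 7 of 11 SCE cows were above every healthy cow. The log2 fold change was 0.40 (SE 0.35). At day 45 the ranges were 66.5 to 166 CPM in healthy and 65.4 to 311 CPM in SCE cows, with 3 of 11 SCE cows above and 1 below every healthy cow, and the log2 fold change was 0.53 (SE 0.38, 95% interval -0.26 to 1.32, edgeR adjusted p = 0.668).

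miR-195 and miR-497, which come from neighbouring genes, were the least abundant members and had the highest day-25 fold changes among the 6. miR-195 stood at 3.0, 2.66, 0.885, 11.1 and 5.60 CPM in healthy cows 1, 2, 4, 5 and 6 at day 25, from 22, 30, 6, 266 and 20 reads. In SCE cows the lowest, median and highest were 1.90, 25.7 and 68.0 CPM, the lowest being cow 7 with 5 reads. In 10 of 11 SCE cows it was above every healthy cow. The log2 fold change was 2.75 (SE 0.69, 95% interval 1.32 to 4.18).

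miR-497 at day 25 stood at 12.1, 7.36, 4.13, 20.7 and 17.6 CPM in the same healthy cows, and at 14.5, 51.5 and 103 CPM in the lowest, median and highest SCE cow. In 9 of 11 SCE cows it was above every healthy cow, and cows 7 and 10, at 14.5 and 17 CPM, lay within the healthy range. The log2 fold change was 2.09 (SE 0.53, 95% interval 0.99 to 3.20).

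At day 45 the healthy and SCE ranges of both miRNAs overlapped more. miR-195 stood at 4.79, 14.2 and 33 CPM in the lowest, median and highest healthy cow and at 1.37, 17 and 53.5 CPM in SCE cows, with 2 of 11 SCE cows above and 1 below every healthy cow. Its log2 fold change was 0.66 (SE 0.54, 95% interval -0.45 to 1.76, edgeR adjusted p = 0.690). miR-497 stood at 12.3, 21.7 and 47.2 CPM in healthy and 6.55, 40.3 and 125 CPM in SCE cows, with 5 of 11 SCE cows above and 1 below. Its log2 fold change was 1.11 (SE 0.52, 95% interval 0.05 to 2.18, edgeR adjusted p = 0.460). Neither difference passed the test over all miRNAs, and both intervals include differences of more than 1.5 on the log2 scale.

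Counts were also summed per cow over both days, a description that shares the libraries of day 25 and of day 45. The log2 fold change was then 1.27 (SE 0.47) for miR-195, 1.36 (SE 0.43) for miR-497, 0.82 (SE 0.34) for miR-16a and 0.46 (SE 0.29) for miR-15b. For miR-16b and miR-15a it was -0.02 (SE 0.35) and -0.10 (SE 0.28). miR-195 and miR-497 were chosen with their higher values in this contrast known, so nothing is read from their shared side. The values of miR-16a and its neighbour miR-15a were not tested against each other, nor were those of miR-15b and its neighbour miR-16b.

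**Figure D3:**
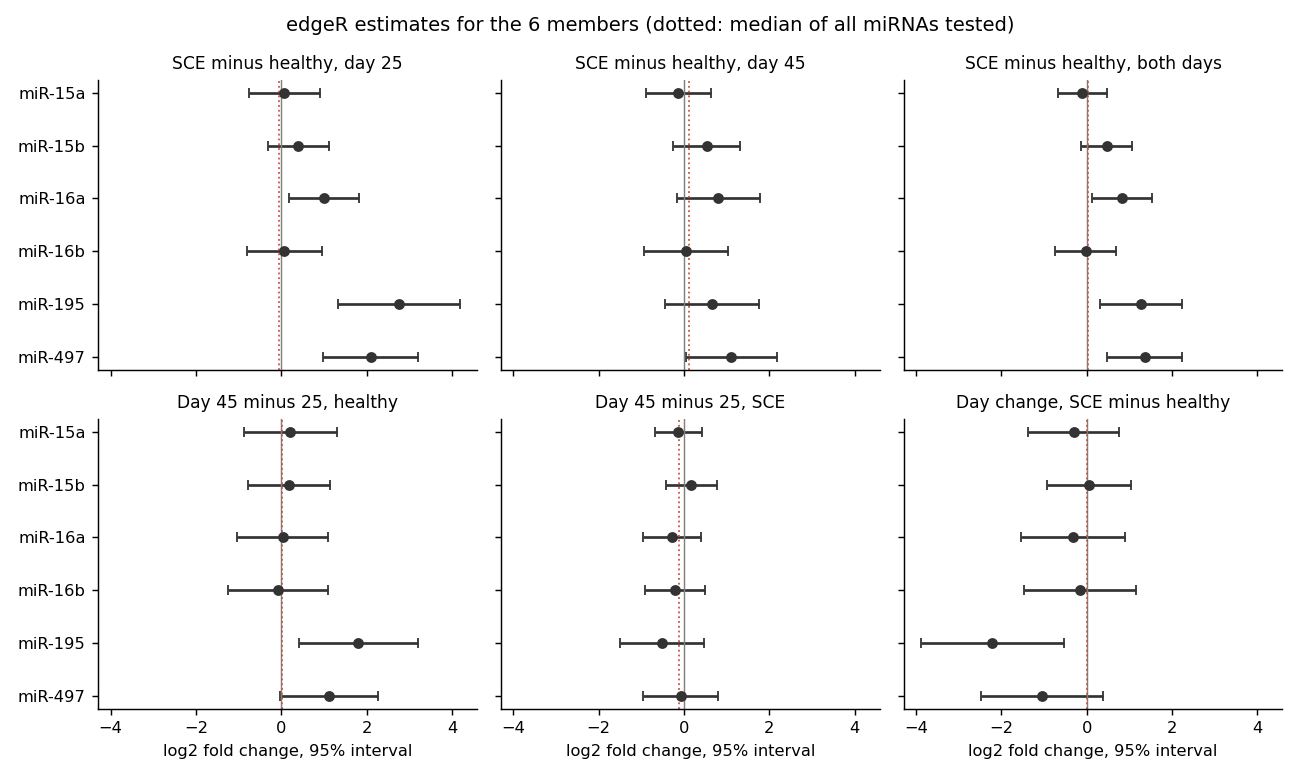
Log2 fold change of SCE over healthy cows for each member at day 25, at day 45 and over both days, and of day 45 over day 25 in each status and their difference; bars are 95% intervals from the edgeR fit, the grey line is 0 and the dotted line the median of all miRNAs tested. At day 25 miR-195 lies at 2.75 and miR-497 at 2.09, and at day 45 the intervals of 5 of 6 members include 0.

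The edgeR fit over all miRNAs called none of the 6 members in any comparison. At day 25 it called 1 of 372 miRNAs (0.269%) and at day 45 none of 382 (0%). Over both days it called 1 of 418 (0.239%). At an unadjusted p under 0.05 there were 3 of 6 members and 75 of 372 miRNAs at day 25, 1 of 6 and 39 of 382 at day 45, and 3 of 6 and 69 of 418 over both days. DESeq2 called 14 of 523 miRNAs at day 25, with 2 members among them (miR-195 and miR-497). It called 1 of 748 miRNAs and no member at day 45, and 15 of 286 miRNAs over both days, with 1 member (miR-497). All 6 members had a positive log2 fold change at day 25, with a median of 0.70 beside -0.05 over all tested. At day 45 it was positive for 5 of 6 members, with a median of 0.59 beside 0.11 over all tested. Nothing is read from the day-25 and both-days counts, since the members were selected on those contrasts. The both-days contrast holds the day-45 libraries, so the day-45 counts are not independent of the selection either.

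The day-25 log2 fold changes of miR-195 and miR-497 were smaller with gauges of red blood cell RNA as covariates, more so with miR-486 than with miR-451. Both gauges differed in median between the statuses, so their part cannot be told apart from that of status. The log2 ratio of miR-486, abundant in red blood cells, to miR-23a had a median of 9.69 in healthy and 5.57 in SCE cows at day 25, and of 10.3 and 8.49 at day 45. That of miR-451 to miR-23a had medians of 2.49 and 1.54 at day 25 and of 2.66 and 2.04 at day 45. With the miR-486 ratio as a covariate, the day-25 log2 fold change was 1.17 (SE 0.62) for miR-195 and 1.18 (SE 0.53) for miR-497. At day 45 it was 0.44 (SE 0.61) and 0.48 (SE 0.61), and over both days 0.50 (SE 0.60) and 0.31 (SE 0.54). With the miR-451 ratio the day-25 values were 2.21 (SE 0.74) and 1.87 (SE 0.55). The denominator miR-23a itself averaged 747 ± 244 CPM over 5 healthy cows and 1253 ± 462 CPM over 11 SCE cows at day 25 (SD).

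Of the red blood cell list of 9 miRNAs, 8 could be tested at each day and 7 of 8 had a log2 fold change below 0, with a median log2 fold change of -0.64 at day 25 and -0.53 at day 45. edgeR called none of them, and 1 and 2 had an unadjusted p under 0.05. Its most abundant member, miR-486, stood at -1.54 and -1.37. Of the endothelium and stroma list, 5 of 16 had a log2 fold change above 0 at day 25 and 3 of 16 at day 45, with medians of -0.47 and -0.51. edgeR called none of its members at either day, and 4 had an unadjusted p under 0.05 at each day. On this list miR-145, a miRNA of smooth muscle, stood at 1.37 and 2.09, but miR-143, also of smooth muscle, at -0.95 and -0.18. For endothelium, miR-126-3p stood at 0.75 and -0.01 and miR-126-5p at 0.31 and -0.51. The values of miR-10b were -1.92 and -1.60. Over all miRNAs tested, the log2 fold change was above 0 for 178 of 372 at day 25 and for 218 of 382 at day 45. The part of these levels in the values of the family was not tested beyond the covariates above.

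Between the days, the members did not pass the test in either status. In SCE cows, a comparison that shares the day-25 libraries with the status contrast, the log2 fold change of day 45 over day 25 was -0.51 for miR-195 (SE 0.48, 95% interval -1.49 to 0.47, edgeR adjusted p = 0.854) and -0.08 for miR-497 (SE 0.43, 95% interval -0.96 to 0.80, edgeR adjusted p = 0.944). For miR-16a and miR-16b it was -0.28 and -0.22 (edgeR adjusted p = 0.854 and 0.882), and for miR-15a and miR-15b -0.14 and 0.17 (edgeR adjusted p = 0.920 and 0.892). The fit called 0 of 346 miRNAs (0%). At an unadjusted p under 0.05 there were 14 miRNAs and no member, and DESeq2 called none. The median over all tested was -0.11.

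In healthy cows, as a description, the log2 fold change of day 45 over day 25 was 1.80 (SE 0.67) for miR-195 and 1.12 (SE 0.55) for miR-497, and between -0.08 and 0.21 for the other members. edgeR called 0 of 345 miRNAs (0%). At an unadjusted p under 0.05 there were 10 miRNAs, 1 of them a member, and DESeq2 called none. Within cows, miR-195 was higher at day 45 in 5 of 5 healthy cows, by 1.78 ± 1.22 on the log2 scale (SD, n = 5), and in 3 of 11 SCE cows, with a change of -0.45 ± 1.42 (SD, n = 11). miR-497 was higher at day 45 in 4 of 5 healthy cows, by 1.0 ± 1.15 (SD, n = 5), and in 4 of 11 SCE cows, with a change of -0.21 ± 1.31 (SD, n = 11). In SCE cows the day-to-day change thus went either way for both.

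**Figure D4:**
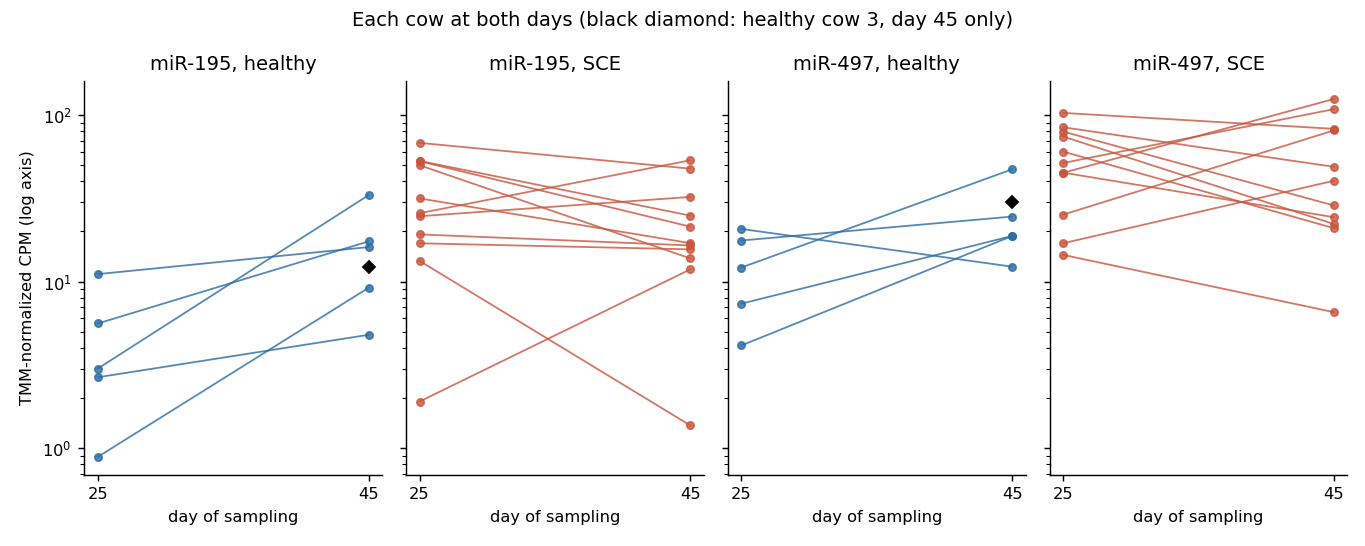
Level of miR-195 and miR-497 at day 25 and day 45, in TMM-scaled CPM on a log axis, with a line for each of the 5 healthy and 11 SCE cows that had both days and a black diamond for healthy cow 3 at day 45. All 5 healthy lines go up for miR-195, with a mean log2 change of 1.78, and in SCE cows 3 of 11 go up.

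The other members moved in both directions within each status. From day 25 to day 45 miR-16b was higher in 2 of 5 healthy and 6 of 11 SCE cows, miR-16a in 3 of 5 and 5 of 11, miR-15a in 4 of 5 and 5 of 11, and miR-15b in 3 of 5 and 6 of 11. The widest range among these was that of miR-16b in SCE cows, from -2.90 to 1.38. The difference of the day change between statuses, SCE minus healthy, was -2.21 (SE 0.83) for miR-195 and -1.05 (SE 0.71) for miR-497, given as a description since it contains the day-25 contrast. edgeR called 0 of 406 miRNAs for this difference (0%). There were 7 at an unadjusted p under 0.05, 1 of them a member, and DESeq2 called none.

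Of the 7 ratios between members at day 45, only that of miR-16a to miR-16b passed. The log2 ratio of miR-15a to miR-15b was 3.40 ± 0.51 over 6 healthy cows and 2.83 ± 0.80 over 11 SCE cows (SD), and 7 of 11 SCE cows were below and 1 above every healthy cow (difference -0.57, exact permutation test, p = 0.138, adjusted p = 0.484). The log2 ratio of miR-195 to miR-497 was -0.81 ± 0.79 and -1.18 ± 1.27 (exact permutation test, adjusted p = 0.661). It ran from -3.88 in SCE cow 8, with 23 reads of miR-195, to 0.84 in SCE cow 7, with 47 reads of miR-497. Without these cows the ratio of miR-195 to miR-497 was -1.10 ± 0.77 in SCE cows (SD, n = 9), so the proportion of these neighbours still varied between cows. Differences of the ratios to miR-16b were 0.51 for miR-195, 0.88 for miR-497 and -0.07 for miR-15a, and that of miR-15b to miR-16a was -0.26 (exact permutation tests, adjusted p = 0.661, 0.566, 0.824 and 0.661).

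At day 25, without a test, the log2 ratio to miR-16b was higher in SCE cows by 2.50 for miR-195 and by 1.82 for miR-497, and 8 and 7 of 11 SCE cows exceeded all healthy ones. The ratio of miR-15b to miR-16a was -2.73 ± 0.90 over 5 healthy cows and -3.44 ± 0.41 over 11 SCE cows (SD), with 7 of 11 SCE cows below every healthy cow. The ratio of miR-195 to miR-497 was higher by 0.68, with 8 of 11 SCE cows above and 2 below every healthy cow. The ratio of miR-15a to miR-16b differed by 0.02 and that of miR-15a to miR-15b by -0.18. Day-25 differences in the ratios of the scarce members to miR-16b largely repeat their fold changes, since the fold change of miR-16b was small that day. Those fold changes were known at selection, so nothing is read from the ratios.

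Relatives with a similar but shifted seed had negative log2 fold changes at both days. miR-103 and miR-107, which are transcribed within genes of pantothenate kinases and act in lipid and glucose metabolism, had log2 fold changes of -0.91 (SE 0.43) and -0.86 (SE 0.54) at day 25. At day 45 they were -0.85 (SE 0.34, edgeR adjusted p = 0.460) and -1.13 (SE 0.36, edgeR adjusted p = 0.277), so neither passed. At day 25 miR-103 averaged 7727 ± 2541 CPM over 5 healthy cows and 4194 ± 3453 CPM over 11 SCE cows (SD). The lowest ratio of miR-103 to miR-107 reads was 2.02 or 2.04 in every group of status and day. The sources used here do not say how reads that match both were assigned, so their fold changes are not taken as separate observations. miR-424-5p and miR-503-5p, close relatives from a cluster on the X chromosome in mammals, were nearly absent, with at most 82 reads of miR-424-5p in a library and 2 reads of miR-503-5p in 1 library.

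Across the 17 cows, with counts summed per cow, the members followed different companions among the 418 miRNAs tested. These correlations of log2 CPM are descriptions over cows that share status, depth and scaling. miR-16b was closest to miR-451, an erythroid miRNA (Pearson r 0.93, Spearman rho 0.95), and then to miR-2285bc (0.83 and 0.79) and miR-6524 (0.80 and 0.74). miR-15a was also closest to miR-451 (0.84 and 0.85), before miR-199b (0.81 and 0.86) and miR-144 (0.80 and 0.83), the partner of miR-451 in its cluster. miR-16a had miR-2285h (0.80 and 0.69), miR-99a-3p (0.79 and 0.64) and miR-187 (0.79 and 0.75) nearest. Neither of the erythroid pair was among these, but miR-16b followed closely (0.78 and 0.63, rank 6). The correlation of miR-16a with miR-451 is not given here, so miR-16a is not set apart from the erythroid pair.

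miR-15b was closest to miR-106b (0.69 and 0.80), miR-18b (0.66 and 0.58) and miR-16a (0.65 and 0.77). miR-195 was closest to miR-11999 (0.88 and 0.88), miR-24 (0.85 and 0.86) and miR-499 (0.80 and 0.79), followed by miR-497 (0.78 and 0.80). miR-497 was closest to miR-193a-3p (0.88 and 0.86), miR-188 (0.87 and 0.90) and miR-29c (0.85 and 0.87). Within the family, miR-15a followed miR-16b (Pearson r 0.78) more than its genomic neighbour miR-16a (0.57), and miR-15b followed miR-16a (0.65) more than its neighbour miR-16b (0.47). No difference between these correlations was tested. miR-195 and miR-497 had little relation to miR-16b, at 0.10 and -0.06.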

How the data were processed

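Per the labels' protocols, small RNA libraries were made with the TruSeq Small RNA kit. The authors deposited 1 file a library with raw counts of each mature miRNA. Per the submitters' processing notes, bcl2fastq 2.17.1.14, build UMD 3.1 and DESeq2 were used. Aligner, counting tool and miRNA annotation: not given in the sources used here.

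Here 33 of 34 libraries were joined by name. At day 25 the planned 6 healthy cows became 5. Cows are the replicates. Fits used edgeR 4.0.16 (quasi-likelihood F test, TMM, default filter on low counts) in R 4.3.3 over the whole table, with Benjamini-Hochberg adjustment, at an adjusted p of 0.05, two-sided. DESeq2 1.42.0 was an alternative. Scripts were tested on simulated data. Standard errors of the edgeR fits are the absolute log2 fold change divided by the square root of F. Those of the miR-16a to miR-16b ratio with a covariate come from a least-squares fit on status and the covariate. Ratios used a prior count of 1 and an exact permutation test over cows, and CPM correlations a prior count of 2.

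The same cow gave both days. Over 16 cows, the early and late deviations from the group mean had a median r of 0.25 within a cow, against -0.032 with other cows of the status, with r over 0.1 in 11 cows. The cow block was an alternative.

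The members, ratios and lists were chosen with earlier results of these data known. Named besides the members are the 3 miRNAs nearest each member in Pearson r, examples of the red blood cell and stroma lists, and relatives. The rule took relatives by mature sequence, which was not used here, so miR-103, miR-107, miR-424-5p and miR-503-5p were taken from general knowledge. Added after seeing the data were the fits without SCE cows 7 and 8 or with them alone, and the covariates in the ratios.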

Additional observations from a re-analysis of the deposited data

Results flagged for a closer look

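In healthy cow 4 at day 25 the log2 ratio of miR-15b to miR-16a was -1.17, far from the other 4 healthy cows of that day, the nearest of which stood at -2.78. It was singled out because its gap to the nearest cow took 0.773 of the range of the group. In all, 26 such checks were made, and chance singles out about 1 in 20 groups. No cause was tested.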

How the results depend on the processing

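The difference in the miR-16a to miR-16b ratio at day 45 kept its call in all 17 fits that left out a cow, between 0.69 and 0.86 (exact permutation test, adjusted p from 0.00612 to 0.0353). With SCE cows 7 and 8 as the only SCE cows the difference was 0.23, in a comparison too small to pass. That setting turned the ratios of miR-195 to miR-16b (-1.05), miR-497 to miR-16b (-0.34) and miR-15b to miR-16a (0.35). Leaving out a cow moved the differences in the ratios of miR-15a to miR-16b between -0.19 and 0.10 and of miR-15b to miR-16a between -0.41 and 0.0044. At day 25, 2 members (miR-195 and miR-497) were called with DESeq2 (14 of 523 miRNAs called), 2 with RLE size factors (4 of 372), 2 without the filter on low counts (6 of 752) and 2 without SCE cows 7 and 8 (9 of 370), and from 0 to 2 with a cow left out (0 to 7 miRNAs called; 1 member without cow 5 or 8, 2 without cow 7 or 13). Over both days 1 was called with DESeq2 (15 of 286), 2 without cows 7 and 8 (18 of 413), and from 0 to 1 with a cow left out (0 to 10 miRNAs called; 1 member without cow 7). Fold changes near 0 changed sign. For miR-15a at day 45 they were 0.22 and 0.064 with the miR-451 and miR-486 covariates, 0.047 without cows 7 and 8, and from -0.26 to 0.15 with a cow left out. For miR-16b at day 45 they were -0.013 with DESeq2, -0.013 with RLE size factors, -0.083 without the filter, and from -0.23 to 0.44 with a cow left out. Between days in SCE cows, miR-497 was at 0.054 with DESeq2, 0.058 with RLE size factors and from -0.37 to 0.095 with a cow left out, miR-15a from -0.30 to 0.079 and miR-16b from -0.44 to 0.065. With the cow as a replicate block all 21 day results kept their call, with 0 members called. The paired values were 1.85 for miR-195 in healthy cows, -0.58 in SCE cows and -2.38 for the difference between statuses. The cause of these changes was not tested. Counts of at most 30 reads limit miR-195 in 9 libraries, 4 of the 5 from healthy cows at day 25, healthy cow 2 and SCE cow 8 at day 45, SCE cow 7 at day 25 and both of SCE cow 10, and the 5 healthy cows limit day 25.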
